A study of Saccharomyces cerevisiae with 8 samples.

Results

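The response of sgs1 null budding yeast, Saccharomyces cerevisiae, to the alkylating agent methyl methanesulfonate (MMS) was described from 4 of the 8 arrays of the study. The members were chosen by the sample descriptions: 2 arrays of an sgs1 null strain grown with MMS and 2 arrays of the sgs1 null strain grown without treatment. The other 4 arrays, 2 of wild type with MMS and 2 of untreated wild type, served as a comparison and added to the estimate of the spread. Each array held total RNA of a log-phase culture on a one-colour oligonucleotide array, in a study described as one of yeast ageing. The only genotype given is the null allele of SGS1, which both sgs1 null groups carry. The sources used here give neither the strain background, nor how the allele was made, nor the dose and time of MMS. In each group 1 array carries the word rep in its title, and it is called the array marked rep here; the other is called the first array. The labels do not state whether a group's 2 arrays hold separate cultures. The p-values therefore measure spread between arrays that may be technical only. The number of arrays limits the precision.

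MMS transfers methyl groups to DNA bases, and the lesions stall replication forks. Sgs1 is a DNA helicase of the RecQ family that works with the topoisomerase Top3 and its partner Rmi1 to take apart recombination intermediates, and cells without it are known for their sensitivity to MMS. In yeast the agent is known to raise transcripts for DNA repair, for deoxynucleotide synthesis, for the proteasome and, because it also alkylates thiols and proteins, for the handling of oxidants and foreign compounds.

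As a check of the genotype, the intensity of SGS1 as deposited was 17.7 and 2.1 in sgs1 null with MMS and 1.7 and 2.9 in untreated sgs1 null, against 339.1 to 577.3 in wild type with MMS and 444.2 to 777.3 in untreated wild type. All 4 sgs1 null values lay far under the intensity of 97.1 below which values were not ordered, a limit called the floor, so the arrays fit their strain labels. Of the genes that mark mating type, the a-cell genes STE2, MFA1, MFA2 and BAR1 were bright on all 4 sgs1 null arrays, with normalized intensities of 1263 to 11190. The alpha-cell genes STE3 and MF(ALPHA)1 and MF(ALPHA)2 lay between the floor and 407.5. The a-cell genes STE6 and AGA2 were bright too, but ASG7 was as dim as the alpha-cell genes, at 335.9 and 246.1 with MMS and 325.3 and 132 untreated. SAG1, the alpha-cell agglutinin, was brighter than the other alpha-cell genes, at 953.2 and 1546 with MMS and 1088 and 1267 untreated.

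The arrays of a group differed widely. The first MMS array and the MMS array marked rep of the sgs1 null strain differed by a median of 0.346 on the log2 scale, with 716 of 7641 features more than 2-fold apart, and the untreated pair by 0.307, with 453 features. An sgs1 null MMS array and an untreated one differed by a median of 0.378 to 0.427, with 1009 to 1174 features more than 2-fold apart. Each sgs1 null MMS array was closer to the wild-type MMS array of the same mark, at a median of 0.227 for the first arrays and 0.217 for those marked rep, than to the other array of its own group. The control probe sets of the array also moved. The median intensity of the 10 ribosomal RNA control probe sets was 1223 and 153.4 in sgs1 null with MMS, against 1987 and 2309 untreated, and 7587 and 325 in wild type with MMS, against 7721 and 1514 untreated. The lowest 2 values were those of the MMS arrays marked rep. The ratio of the 3′ to the 5′ probe set of the actin gene ACT1, which grows as RNA or its labelling is cut short, was 3.25 and 2.7 in sgs1 null with MMS, against 2.28 and 1.88 untreated. The groups did not overlap in that ratio, nor in that of SRB4 (7 and 8.04 with MMS, against 6 and 5.96 untreated). They overlapped in that of SPT15 (3.52 and 2.25 with MMS, against 2.85 and 2.29 untreated). The part of these ratios in the results below was not tested.

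**Figure D1:**
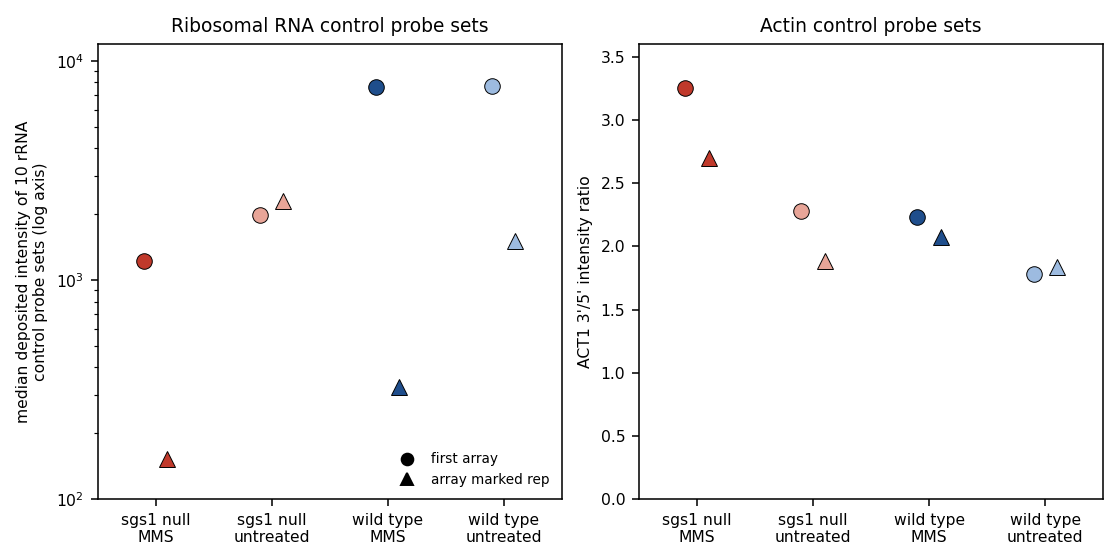
Left, median deposited intensity of the 10 ribosomal RNA control probe sets per array (log axis); right, the ACT1 3′ over 5′ intensity ratio per array, for sgs1 null with MMS, sgs1 null untreated, wild type with MMS and wild type untreated. Circles are first arrays and triangles are arrays marked rep; the sgs1 null MMS array marked rep has the lowest ribosomal RNA value, 153.4, and the first sgs1 null MMS array the highest ACT1 ratio, 3.25.

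With MMS, some genes of oxidant and foreign-compound handling, of the proteasome and of repair rose in the sgs1 null strain, among them SRX1, OYE3, RPT3 and RFA1. Some genes of the acid phosphatase, low-oxygen, and respiratory chain and ATP synthase groups fell, among them PHO3, ANB1 and INH1, which encodes an ATP synthase inhibitor. In each of these lists most members did not pass. Each feature is 1 named gene, averaged over its probe sets, or 1 probe set without a single gene name. Of 7641 features, 192 passed an adjusted p of 0.05 in limma's moderated test, which is 2.51% of those tested, with 109 higher (1.43%) and 83 lower (1.09%), and 1540 (20.2%) had an unadjusted p under 0.05. Of the called features, 165 were named genes (2.96% of those), 98 of them higher and 67 lower. Among these, 19 rose and 6 fell by at least 4-fold. The smallest change called was 0.54 on the log2 scale, and named genes near that limit included UBI4, TRM10 and SKI6 among the rises (0.63, 0.62 and 0.61) and COX16, DAT1 and SEC11 among the falls (-0.68, -0.64 and -0.63). The MMS and untreated arrays did not overlap for 3396 features (44.4%), so a lack of overlap alone is common. Over all features 48.5% had a change above 0 and 51.5% below 0. Counts within the lists below are to be read against these shares and the 2.51% called. Features more than 2-fold apart without overlap numbered 313 on the higher side (4.1%) and 324 on the lower side (4.24%), and 235 and 261 of these did not pass the threshold. The count rests on having all arrays: without the first sgs1 null MMS array or the one marked rep 1 feature passed, without the first untreated sgs1 null array 13 and without the one marked rep 8. Without either wild-type MMS array it was 4, and without either untreated wild-type array 5, since these arrays add to the estimated spread. Of the genes named by the rule given below, the aryl-alcohol dehydrogenase gene AAD4 and PHO3 passed most often over the 18 settings tried, in 14 each. Called genes outside that rule were not counted.

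Among the repair genes, the clearest rises were those of RFA1 and RFA2, subunits of the complex that coats single-stranded DNA. RFA1, its large subunit, had normalized intensities of 6852 and 7000 with MMS, against 2413 and 2178 untreated, a log2 change of 1.59 ± 0.12 (SE, adjusted p = 0.0164). RFA2, its middle subunit, had 6335 and 5397 with MMS, against 2377 and 2172 untreated (1.36 ± 0.11, adjusted p = 0.0193). Both MMS arrays lay more than 2-fold above both untreated arrays for each gene. RAD54, a motor protein of strand exchange, had 1759 and 1664 with MMS, against 587.3 and 731.9 untreated (1.38 ± 0.18, adjusted p = 0.0358). These were the 3 that rose of 14 genes of homologous recombination, of which 0 fell and 11 did not pass. RFA3, of the same complex as RFA1 and RFA2, was among those 11. The median of that list was 0.42, against 0 over all features.

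Genes that act directly on alkylated bases did not pass. MAG1, the glycosylase that removes methylated purines, had 2828 and 1585 with MMS, against 990.6 and 1181 untreated (0.97 ± 0.33, adjusted p = 0.2). Both MMS arrays were above both untreated arrays, but the MMS arrays lay far apart. MGT1, the methyltransferase that repairs alkylated guanine, had 2053 and 1599 with MMS, against 3000 and 1813 untreated, and the groups overlapped (-0.36 ± 0.37, adjusted p = 0.674). In the list of alkylation and base excision repair, 0 of 10 genes passed (median 0.03, between -0.16 and 0.27 over the settings tried), and the glycosylase gene OGG1 had the smallest p (1.07 ± 0.29, adjusted p = 0.133), followed by the flap endonuclease gene RAD27 (1.18 ± 0.38, adjusted p = 0.179). The nucleotide excision repair list also had 0 of 20 past the threshold, with 15 above 0 and a median of 0.47. RAD23, which hands damaged sites and ubiquitinated proteins on, stood at 1.04 ± 0.23 (adjusted p = 0.0882) and RAD7 at 0.52 ± 0.10 (adjusted p = 0.0681). All 6 measured mismatch repair genes had values above 0 (median 0.62), led by PMS1 (1.29 ± 0.25) and MSH6 (1.23 ± 0.26), and 0 passed.

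MMS2 went the other way. It encodes the partner of the Ubc13 ubiquitin-conjugating enzyme in error-free postreplication repair, and its intensity was 1786 and 1959 with MMS, against 3934 and 4443 untreated. It fell by 1.16 ± 0.12 (adjusted p = 0.0253) and was the one gene past the threshold in the postreplication repair list of 10, whose median was 0.16. The genes grouped with Sgs1 as its partners and alternative pathways numbered 18, and 0 passed (median -0.02). TOP3 was at the floor on 3 arrays and at 338.2 on the MMS array marked rep (0.90 ± 0.65, adjusted p = 0.537). RMI1 had 592.8 and 515.1 with MMS, against 611.6 and 529.9 untreated, a change of -0.04 ± 0.34 whose sign turned when 1 array was left out. ESC2, which acts with Sgs1 at recombination intermediates, was at 170.6 and 238 with MMS, against 395.1 and 579.7 untreated, and had the smallest p of the list (-1.25 ± 0.26, adjusted p = 0.0849).

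The list of ribonucleotide reductase genes and damage reporters had 3 of 12 genes risen, and none of those 3 is a subunit of the enzyme. DDI1, a ubiquitin receptor named for its induction by DNA damage, had 5304 and 7060 with MMS, against 1303 and 1485 untreated (2.14 ± 0.20, adjusted p = 0.0231). PLM2, a forkhead-associated domain protein, had 288.3 and 248 with MMS, against 132.1 and 145.4 untreated (0.95 ± 0.10, adjusted p = 0.0295), and the polyubiquitin gene UBI4 rose too. RNR1, the large subunit, had 2293 and 2730 with MMS, against 1053 and 891.8 untreated. Its groups did not overlap and its change of 1.37 ± 0.22 missed the threshold (adjusted p = 0.0535). RNR3, the damage-inducible large subunit, had 754.7 and 1129 with MMS, against 523.1 and 465.1 untreated (0.90 ± 0.44, adjusted p = 0.347). The small subunit genes RNR2 and RNR4 were bright throughout, at 7517 to 14450, with changes of 0.52 and 0.28 that did not pass. HUG1, an inhibitor of the enzyme that is usually counted among the damage-induced genes, had 1784 and 1773 with MMS, against 2505 and 2857 untreated (-0.59 ± 0.23, adjusted p = 0.251). The 18 checkpoint genes had a median of 0.43 and 0 past the threshold, among them the kinase gene DUN1 (0.56 ± 0.15, adjusted p = 0.123) and the securin gene PDS1 (1.16 ± 0.28). That median was 0.25 without the MMS array marked rep. Of 43 DNA replication genes 1 rose (2.33%, against 2.51% of all features), the thymidylate synthase gene CDC21 (1.00 ± 0.14, adjusted p = 0.0447). In that list 34 genes were above 0 and the median was 0.43. The 2 probe sets of CDC21 gave 1.22 and 0.79, the second at a mean intensity of 128, close to the floor. The change of CDC21 ran from 0.61 to 1.33 over the settings tried.

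**Figure D2:**
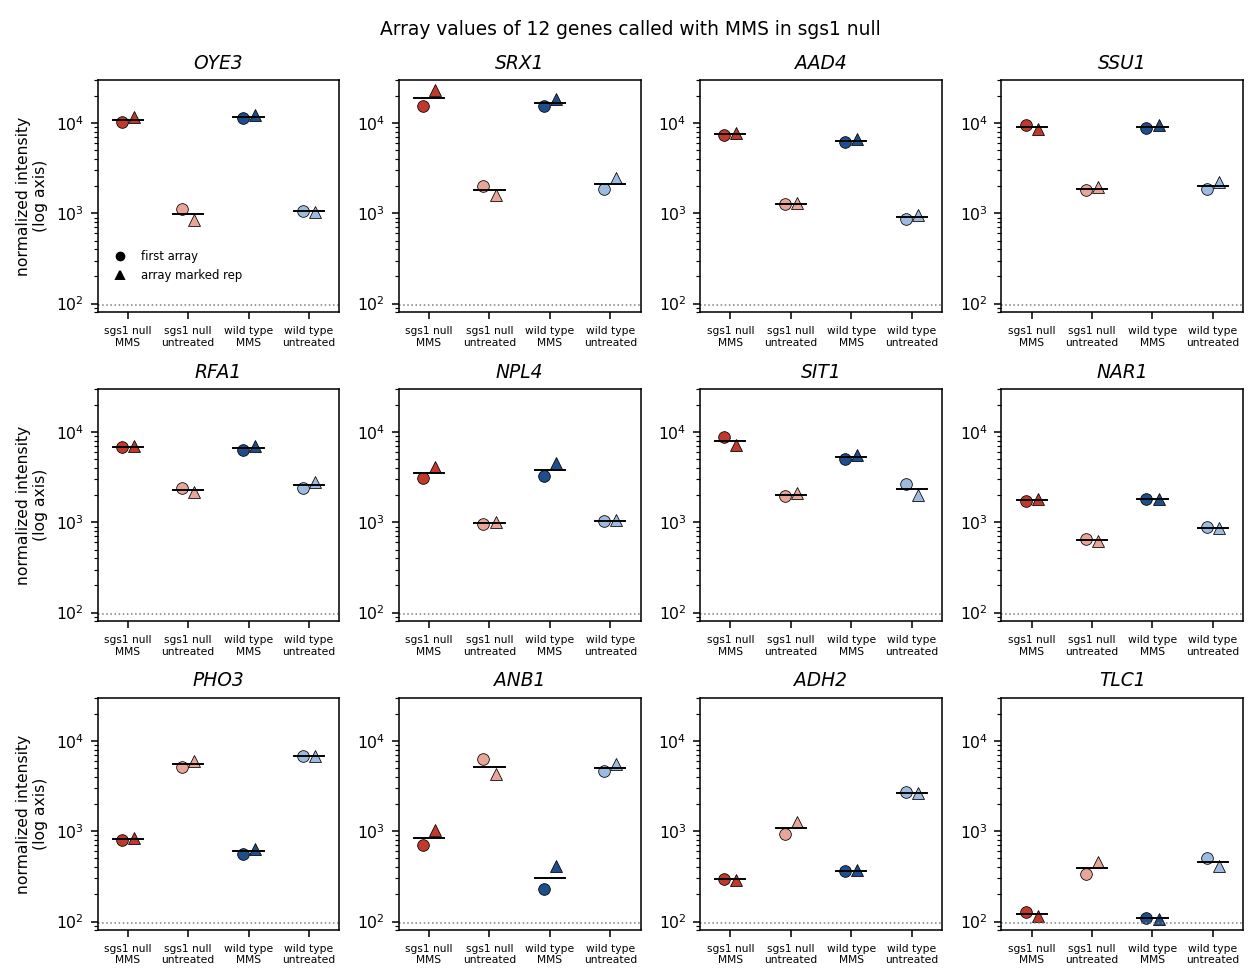
Normalized intensity (log axis) of 12 genes on each array, for sgs1 null with MMS, sgs1 null untreated, wild type with MMS and wild type untreated; circles are first arrays, triangles arrays marked rep, bars the geometric means and the dotted line the floor of 97.1. The first 8 genes lie higher on both sgs1 null MMS arrays than on both untreated ones (SRX1 at 15640 and 23180, against 2037 and 1599), and the last 4 lower (PHO3 at 803.1 and 849.9, against 5118 and 5963).

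The proteasome list had the highest median of all lists. The list also holds the transcription factor gene RPN4 and assembly and accessory factors beside the subunits. All 36 measured members had values above 0, from 0.30 to 1.80 with a median of 0.95, and for 35 of them both MMS arrays lay above both untreated arrays, against 23.6% of all features. Of the 36, 6 rose, 0 fell and 30 did not pass. RPT3, an ATPase of the base of the regulatory particle, had 4523 and 6043 with MMS, against 1280 and 1769 untreated (1.80 ± 0.22, adjusted p = 0.0319). The base subunit gene RPN1 rose by 0.68 ± 0.10, and the lid subunit genes RPN9, RPN12, RPN8 and RPN6 rose by 1.27, 1.22, 1.10 and 0.93. RPN6 was at 8407 and 7750 with MMS, against 4135 and 4321 untreated. RPN4, the transcription factor of these genes, had 5835 and 6712 with MMS, against 3905 and 4467 untreated, and did not pass (0.58 ± 0.15, adjusted p = 0.118). The median of the list stayed between 0.83 and 1.05 over the settings tried.

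Of 26 genes of the ubiquitin and Cdc48 pathway, 5 rose and 0 fell, with 22 above 0 and a median of 0.61. UFD1 and NPL4 encode the pair of cofactors through which the Cdc48 segregase takes up ubiquitinated proteins. UFD1 had 3899 and 3804 with MMS, against 1473 and 1274 untreated (1.49 ± 0.11, adjusted p = 0.0164), and NPL4 had 3094 and 4088, against 971.6 and 1023 (1.83 ± 0.21, adjusted p = 0.0296). The ubiquitin ligase gene HUL5, whose product works at the proteasome, rose by 1.37 ± 0.17, and DDI1 and UBI4 are members here too. Outside the lists, and chosen after their values were seen, ADD66, a proteasome assembly chaperone gene (1.74 ± 0.15), STS1, which places proteasomes in the nucleus (0.96 ± 0.12), and RQC1, of ribosome-bound quality control (1.10 ± 0.15), also rose.

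Several of the largest rises were those of genes that handle oxidants, aldehydes and electrophiles. SRX1, the sulfiredoxin that restores over-oxidised peroxiredoxins, had 15640 and 23180 with MMS, against 2037 and 1599 untreated (3.40 ± 0.27, adjusted p = 0.017). YAP1, the transcription factor that senses oxidants and electrophiles, had 2303 and 2068 with MMS, against 841.1 and 662.1 untreated (1.55 ± 0.17, adjusted p = 0.0296), and the thioredoxin reductase gene TRR1 rose by 1.32 ± 0.12. These were the 3 that rose of 19 thioredoxin and peroxiredoxin genes, of which 0 fell (median 0.48). The list of 21 glutathione and glutaredoxin genes had 4 risen and 0 fallen, with a median of 0.32 and members down to -1.22. GPX2, a thiol peroxidase, had 5555 and 4681 with MMS, against 586.5 and 737.4 untreated (2.95 ± 0.26, adjusted p = 0.021). GTT2, a glutathione transferase, had 10000 and 9128 with MMS, against 1626 and 1283 untreated (2.73 ± 0.17, adjusted p = 0.0134). The other risen members were YCF1, the vacuolar pump for glutathione conjugates (1.71 ± 0.13), and GTO3, an omega-class glutathione transferase that was at the floor on the first untreated array (1.52 ± 0.22).

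Members of the aldehyde and quinone reductase list went both ways, with 4 of 18 risen and 1 fallen around a median of 0.14 that ran from -0.02 to 0.28 over the settings tried. OYE3, an old yellow enzyme that reduces its substrates with NADPH, had 10220 and 11870 with MMS, against 1121 and 847.2 untreated (3.50 ± 0.16, adjusted p = 0.00796). Of the aryl-alcohol dehydrogenase family, AAD6 had 1619 and 1522 with MMS, against 101.6 and 130.2 untreated, close to the floor (3.77 ± 0.26, adjusted p = 0.0164). AAD4 had 7412 and 7867 with MMS, against 1285 and 1292 untreated, the smallest adjusted p of any named gene (2.57 ± 0.09, adjusted p = 0.00386). AAD10 fell in the same arrays, at 1634 and 1190 with MMS, against 5332 and 4681 untreated (-1.84 ± 0.19, adjusted p = 0.0269). The family is made of near-identical copies, and 1 of the 2 probe sets behind AAD4 carries the suffix that marks shared sequence, so signal between copies may be mixed. The NADPH-dependent alcohol dehydrogenase gene ADH6 rose by 1.26 ± 0.14. Large rises outside the lists were those of YLR460C (3.23 ± 0.40), YLR108C (2.84 ± 0.33) and OSI1 (2.72 ± 0.41), whose products are little known. YHB1, a flavohaemoglobin that consumes nitric oxide, rose by 2.54 ± 0.13 over 4 probe sets that differed, at -0.41, 4.51, 3.63 and 2.42.

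Export pumps and metal genes followed. FLR1, a drug pump under Yap1 control, had 6659 and 10080 with MMS, against 1616 and 1751 untreated (2.28 ± 0.22, adjusted p = 0.0232). ATR1, another drug pump, had 2129 and 2283 with MMS, against 539.6 and 447.4 untreated (2.17 ± 0.15, adjusted p = 0.0164). The rest of the 22 multidrug efflux genes did not pass, and the list median was -0.31, between -0.46 and -0.11 over the settings. SSU1, the sulfite pump, had 9520 and 8641 with MMS, against 1804 and 1960 untreated (2.27 ± 0.12, adjusted p = 0.00847). FZF1, which encodes the activator of SSU1, was named after its value was seen and had 1458 and 1520 with MMS, against 621.8 and 623.2 untreated (1.26 ± 0.09, adjusted p = 0.0164). In neither gene did the groups come near each other.

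Of 24 iron regulon genes, 3 rose and 1 fell around a median of 0.55. FRE1, a cell-surface ferric reductase, had 5233 and 4158 with MMS, against 1068 and 870.6 untreated (2.27 ± 0.19, adjusted p = 0.0195). SIT1, a siderophore transporter, had 8811 and 7193 with MMS, against 1970 and 2102 untreated (1.97 ± 0.18, adjusted p = 0.0214), and the high-affinity permease gene FTR1 rose by 1.17 ± 0.11. FET4, the low-affinity iron transporter, fell, with 783.6 and 565.4 with MMS, against 1766 and 1560 untreated (-1.32 ± 0.18, adjusted p = 0.0391). Genes of iron-sulfur cluster assembly were not a list of their own. ISU2, a mitochondrial scaffold on which clusters are built, had 14760 and 16490 with MMS, against 3894 and 2995 untreated (2.19 ± 0.15, adjusted p = 0.0164). NAR1, of the cytosolic assembly pathway (1.47 ± 0.08, adjusted p = 0.00847), and LTO1, which serves cluster insertion into a ribosome recycling factor (1.69 ± 0.22, adjusted p = 0.0358), were named after their values were seen. The 12 zinc and copper genes had 0 past the threshold.

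The largest fall of a named gene was that of PHO3, a secreted acid phosphatase. It had 803.1 and 849.9 with MMS, against 5118 and 5963 untreated (-2.74 ± 0.11, adjusted p = 0.00605). PHO5, the phosphate-repressed acid phosphatase encoded next to it, had 1102 and 1037 with MMS, against 2286 and 2882 untreated (-1.26 ± 0.19, adjusted p = 0.0482). The other 16 measured genes of the phosphate regulon did not pass. Of the 18 genes 15 had values above 0, against 48.5% of all features, and the list median was 0.46.

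The lists of low-oxygen and respiratory genes had the lowest medians. Among 25 hypoxic and haem genes 3 fell and 0 rose, with 18 below 0 and a median of -0.64. ANB1, the form of translation factor eIF5A made under low oxygen, had 705 and 1031 with MMS, against 6335 and 4298 untreated (-2.61 ± 0.38, adjusted p = 0.0452). CYC7, the low-oxygen cytochrome c, had 808.4 and 1235 with MMS, against 5318 and 4843 untreated (-2.34 ± 0.28, adjusted p = 0.0319). DAN1, an anaerobic cell wall protein gene, was at 104.5 and the floor with MMS, against 181.3 and 196.7 untreated (-0.91 ± 0.08, adjusted p = 0.021). The median was -0.40 without the first MMS array and -0.92 without the first untreated one.

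The respiratory chain and ATP synthase list had 38 genes, of which 4 fell and 0 rose. The list had 35 members below 0 and 26 with both MMS arrays below both untreated ones, against 20.9% of all features, with a median of -0.53 that stayed between -0.63 and -0.47. INH1 and STF1 encode small proteins that bind and hold the ATP synthase inactive. INH1 had 878.2 and 651 with MMS, against 2899 and 2285 untreated (-1.77 ± 0.20, adjusted p = 0.0296), and STF1 had 3412 and 3225, against 10700 and 7953 (-1.48 ± 0.17, adjusted p = 0.0319). The complex III subunit genes QCR10 and COR1 fell by 1.37 ± 0.18 and 0.86 ± 0.10. RIP1, the iron-sulfur subunit of the same complex, did not pass (-1.02 ± 0.35, adjusted p = 0.202). Mitochondrial ribosomal protein genes had 1 fall in 65, MRPL23 (-0.76 ± 0.09), a share of 1.54%, against 2.51% of all features called. Of the 65, 46 were below 0, against 51.5% of all features (median -0.26, and -0.15 without the first untreated array). The 28 genes of the citrate and glyoxylate cycles had a median of -0.38 and 0 past the threshold. That median was -0.24 without the first MMS array and -0.18 without the first untreated one.

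Carbon and sugar genes showed single falls in lists that were mostly below 0. ADH2, the glucose-repressed alcohol dehydrogenase, had 296.3 and 292.3 with MMS, against 938.4 and 1271 untreated (-1.89 ± 0.15, adjusted p = 0.019). MAL11, an alpha-glucoside transporter, fell by 1.96 ± 0.27 and GAL10, of galactose use, by 1.29 ± 0.10, which made 3 of 24 genes of glucose-repressed carbon use (median -0.23, and -0.41 without the first untreated array). HXT4, a hexose transporter, had 1596 and 1533 with MMS, against 4506 and 4889 untreated (-1.59 ± 0.19, adjusted p = 0.0319), and STD1, a regulator of glucose signalling, fell by 0.93 ± 0.10. They were 2 of 15 hexose transport genes, whose median was -0.40. Among 24 glycolysis and fermentation genes 1 fell, the glycerol phosphatase gene GPP2 (-1.43 ± 0.19), with a median of -0.39.

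In the membrane and wall, ERG5 and ERG28 fell of 24 ergosterol and mevalonate genes. ERG5, a late desaturase of ergosterol synthesis, had 1288 and 1183 with MMS, against 3151 and 4140 untreated (-1.55 ± 0.19, adjusted p = 0.0328). ERG28, a scaffold of the pathway's enzymes, fell by 1.14 ± 0.10. PST1, a wall protein gene turned on by the cell integrity pathway, was the 1 fall among 31 cell wall genes, with 2850 and 2544 with MMS, against 7660 and 8953 untreated (-1.62 ± 0.11, adjusted p = 0.0164). In that list 23 members were below 0, against 51.5% of all features.

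In cell cycle lists few members passed. Array values come from whole cultures, in which fewer cells at a stage and less RNA per cell cannot be told apart. Of 26 G2 and M genes 1 fell, SPO12, a regulator of mitotic exit (817.8 and 811.4 with MMS, against 1707 and 1797 untreated, -1.10 ± 0.12, adjusted p = 0.0296), and 22 were below 0. The 20 genes of G1 and S cyclins with their factors had 1 rise, SVS1, a target of those factors needed for vanadate resistance (1.26 ± 0.12, adjusted p = 0.0231). SMC1, a cohesin subunit, rose by 0.96 ± 0.13 among 34 spindle and chromosome segregation genes (2.94% called, against 2.51% of all features). Of the 12 measured members of the histone list, most of which are histone regulators and chaperones, 1 fell, HTB2, encoding histone H2B, with 590.3 and 966.1 with MMS, against 2701 and 2693 untreated (-1.84 ± 0.27, adjusted p = 0.0467).

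At chromosome ends, TLC1, the RNA of telomerase, had 127.9 and 113.8 with MMS, close to the floor, against 332.3 and 457.4 untreated (-1.69 ± 0.19, adjusted p = 0.0296). Its 2 probe sets gave -1.65 and -1.74. The other 12 genes of telomerase and telomere ends did not pass. SIR1, which helps to silence the mating-type cassettes, was the 1 of 22 silencing and ageing genes that rose (0.78 ± 0.08, adjusted p = 0.0269), and its 2 probe sets gave 1.05 and 0.51. In the list of small nuclear and nucleolar RNAs, which also holds the RNase P RNA gene RPR1, 31 were measured, and SNR19, the U1 spliceosomal RNA, rose, with 1547 and 1133 with MMS, against 237.6 and 140.6 untreated (2.86 ± 0.35, adjusted p = 0.0325). The other 30 did not pass. SNR50, a nucleolar RNA, fell by 1.64 ± 0.12 and was not on that list.

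Single members moved in other lists. The share called was 1.82% for amino acid biosynthesis, 2.63% for mating and pheromone response and 2.86% for nitrogen catabolism. It was 3.7% for general stress and 4% for autophagy, against 2.51% of all features, and 8.7% for vitamin and NAD synthesis. The calls are given for the genes alone, not for their lists. ASN2, an asparagine synthetase gene, rose by 1.27 ± 0.17 among 55 amino acid biosynthesis genes, and PUT1, which starts proline breakdown, fell by 0.92 ± 0.10 among 35 genes of nitrogen catabolism. NMA2, of NAD synthesis, rose by 1.00 ± 0.13 and BIO4, of biotin synthesis, fell by 1.05 ± 0.15. ATG11, an adaptor of selective autophagy, rose by 0.93 ± 0.08 among 25 autophagy genes. The stress transcription factor gene MSN4 fell by 1.13 ± 0.16, the 1 call among 27 genes of general stress and reserve carbohydrate, and PRM6, named for its pheromone regulation, fell by 0.87 ± 0.11 to close to the floor.

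The machinery of protein synthesis stood near the middle of all genes. Of 49 measured cytosolic ribosomal protein genes 0 passed, with values between -0.55 and 0.53 and a median of -0.09. None of 77 ribosome biogenesis genes, 31 RNA polymerase subunit genes or 41 genes of translation factors and tRNA synthetases passed. Their medians were 0.20, 0.08 and 0.03. Lists with 0 calls also included 27 genes of heat shock and chaperones, in which the co-chaperone gene AHA1 (0.84 ± 0.18) and HSP10 (-0.87 ± 0.16) came nearest, 32 methionine and sulfur genes and 28 genes of purine, pyrimidine and one-carbon metabolism.

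**Figure D3:**
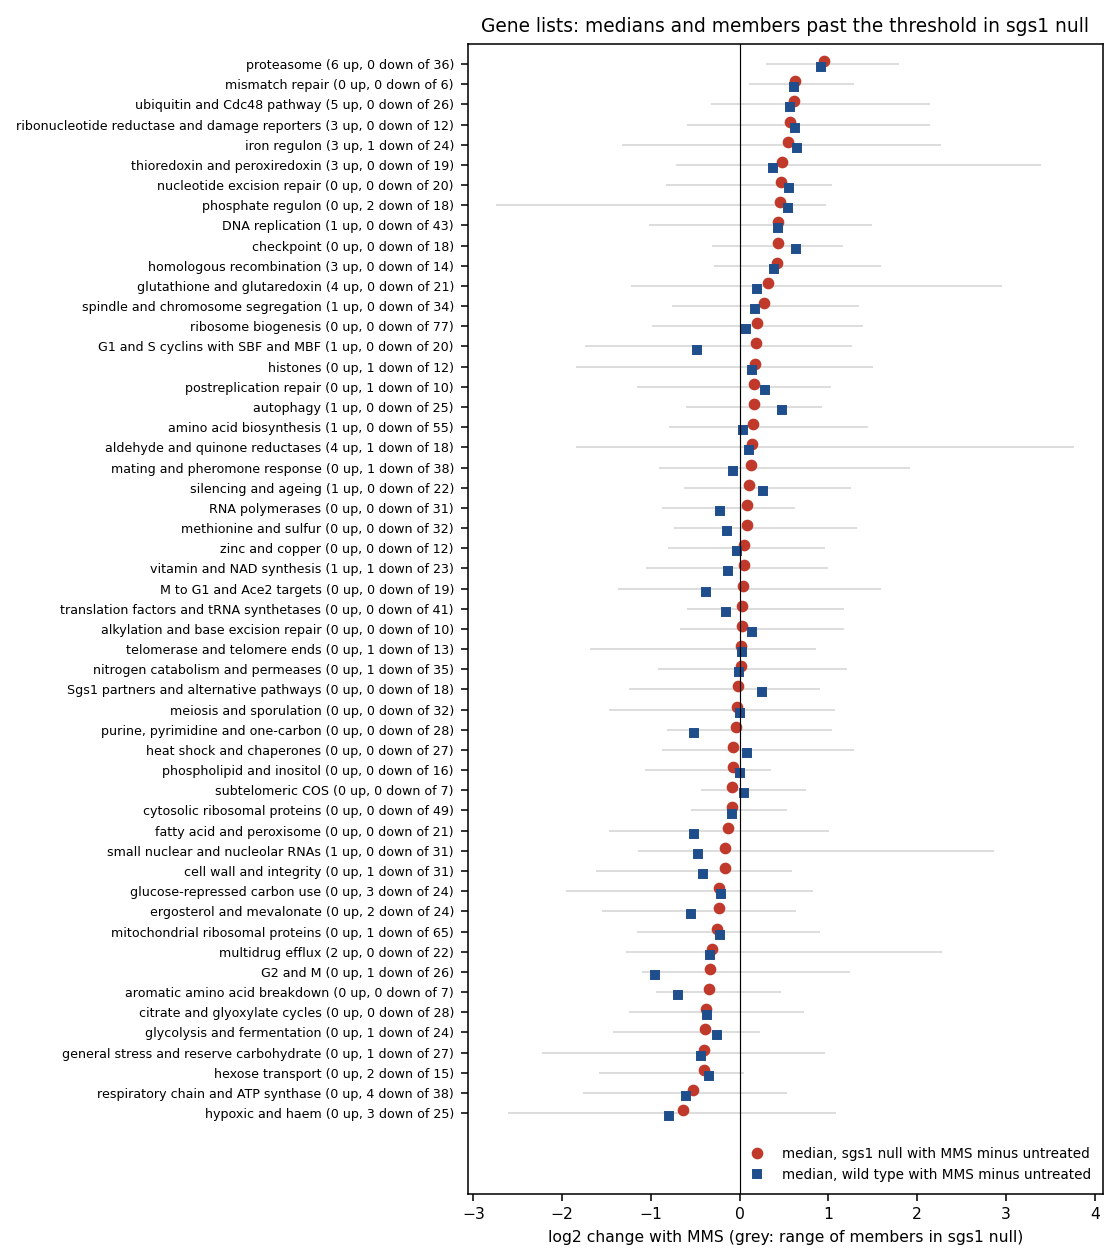
Median log2 change with MMS of each gene list in sgs1 null (red circles) and in wild type (blue squares), with the range of members in sgs1 null as a grey line. The labels give how many measured members rose and fell past the threshold in sgs1 null; the proteasome has the highest median there, 0.95, and the hypoxic and haem list the lowest, -0.64.

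The 2 MMS arrays of the sgs1 null strain did not give the same picture for every list. Each list's median was computed with 1 MMS array at a time against both untreated arrays. The proteasome stood at 0.99 on the first MMS array and 0.93 on the one marked rep, and the respiratory chain at -0.53 on both. The general stress and reserve carbohydrate list stood at -0.78 on the first MMS array and -0.04 on the one marked rep, and the G2 and M list at -0.74 and -0.12. The aromatic amino acid breakdown list changed sign between them, at -0.62 and 0.16, and so did heat shock and chaperones, at -0.29 and 0.16. Small nuclear and nucleolar RNAs were at -0.01 on the first array and -0.40 on the one marked rep, and ribosome biogenesis at 0.36 and 0.02. For cell wall genes the values were -0.49 and -0.18, for ergosterol and mevalonate -0.40 and -0.08, for multidrug efflux -0.46 and -0.11, and for glycolysis and fermentation -0.53 and -0.23. Over all 56 lists the median was larger in size on the first array for 26, on the one marked rep for 27 and equal for 3, and it had opposite signs for 11.

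**Figure D4:**
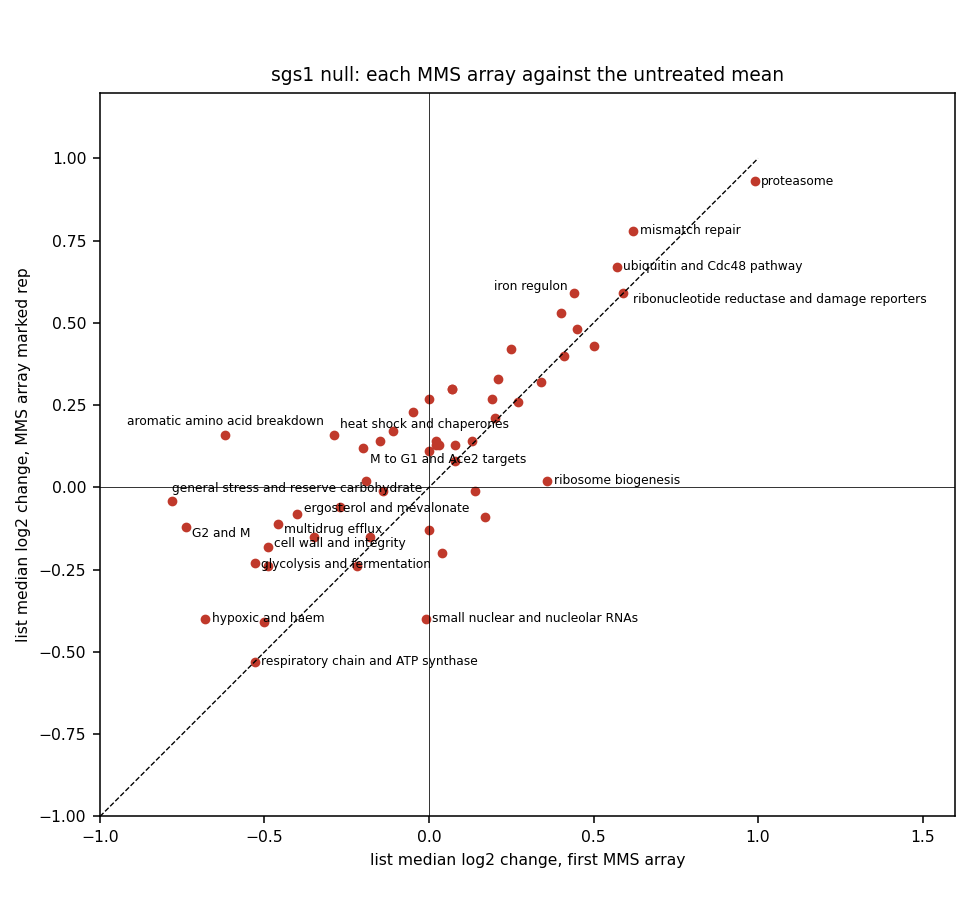
List median log2 change of the first sgs1 null MMS array (horizontal) against that of the MMS array marked rep (vertical), each relative to both untreated sgs1 null arrays; each point is a gene list and the dashed line marks equal change. The proteasome lies near the line at 0.99 and 0.93, and general stress (-0.78 and -0.04) and G2 and M (-0.74 and -0.12) lie far from it.

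Nearly all features called in sgs1 null changed in the same direction in wild type. The sgs1 null and wild-type comparisons share no array, but MMS arrays of the same mark deviated together across the strains, with a correlation of 0.67 over features. Both comparisons also use the same spread per feature, estimated over all 8 arrays. A feature with a small spread is therefore favoured for a call in both strains, and the shared calls are not independent. Of the 192 features called in sgs1 null, 191 had the same sign in wild type and 157 were called there in the same direction, which is 81.8% of the sgs1 null calls and 32.4% of the 485 wild-type calls (6.35% of features). The wild-type calls were 261 higher (3.42%) and 224 lower (2.93%). With the mark as a replicate block the wild-type count was 935. In the fit without the block, leaving out 1 wild-type array gave 0 to 6 calls and 1 sgs1 null array 246 or 275, against 485. Features that rose past the threshold in sgs1 null had a median change of 1.33 there and 1.29 in wild type, and those that fell had -1.29 and -1.19. Features called higher in wild type had a median of 0.92 in sgs1 null and 1.32 in wild type, and those called lower had -0.84 and -1.28. Each set was chosen in 1 strain, which by itself makes the changes in that strain the larger. Over all features the log2 changes of the strains correlated with r = 0.73 and 73.5% had the same sign.

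The difference between the responses was tested directly, and limma called 0 features (smallest adjusted p = 0.205), with 363 (4.75%) at an unadjusted p under 0.05. It called 1 with the floor at the 20th percentile, DAN1, 3 unnamed probe sets with an intensity trend, and 0 in each of the other settings. DAN1 was at 104.5 and the floor with MMS in sgs1 null, and at the floor on both wild-type MMS arrays. Its sgs1 null change ran from -1.01 to 0 over the settings, so its difference depends on where the floor is set. By unadjusted p, the named genes with the smallest values were as follows. GAP1, the general amino acid permease, had 4398 and 3733 with MMS, against 4251 and 4405 untreated, in sgs1 null, and 983.4 and 1210 with MMS, against 4246 and 3920 untreated, in wild type. Its change was -0.09 in sgs1 null and -1.90 in wild type (difference 1.81 ± 0.20, unadjusted p = 0.000294, adjusted p = 0.749). ATR1 stood at 2.17 in sgs1 null and 3.76 in wild type (difference -1.60 ± 0.22, unadjusted p = 0.000752). SPS100, a spore wall gene, stood at -0.80 in sgs1 null and 1.73 in wild type. Its untreated values were 1863 and 2571 in sgs1 null, against 219.3 and 287 in wild type. With MMS they were 1046 and 1509, against 770.3 and 899.1. HXT1, a low-affinity hexose transporter, stood at -0.69 and 0.64, and SFG1, a transcription factor of filamentous growth, at -1.08 and -3.08. With MMS, SFG1 lay at or near the floor in both strains. Untreated, it was at 267.9 and 205.6 in sgs1 null, against 844 and 1041 in wild type. Also on the higher side were DAN1, MYG1 and ISF1, and on the lower side MGM1, of mitochondrial fusion, and JJJ1, a ribosome biogenesis chaperone. With adjusted p no smaller than 0.205, none of these differences passed. Of the set of damage-response genes in the naming rule, HUG1, RPN4 and DUN1 were those with an unadjusted p under 0.05 for the difference. HUG1 at -0.59 in sgs1 null and 0.52 in wild type had an unadjusted p of 0.0193, RPN4 at 0.58 and 1.29 one of 0.0195, and DUN1 at 0.56 and 1.17 one of 0.032. The other measured genes of that set lay between 0.0768 (PLM2) and 0.861 (RNR1), with RAD54 at 0.124 and DDI1 at 0.768.

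Most list medians were close between the strains, and a few were not. The proteasome list had a median of 0.95 in sgs1 null and 0.92 in wild type, the respiratory chain -0.53 and -0.61, and the iron regulon 0.55 and 0.65. The G2 and M list had -0.33 in sgs1 null and -0.95 in wild type, with 1 and 8 members fallen. In 23 of its 26 genes the change was higher in sgs1 null, against 49.7% of all features. Purine, pyrimidine and one-carbon genes stood at -0.04 in sgs1 null and -0.52 in wild type, with 25 of 28 higher, and ergosterol and mevalonate genes at -0.23 and -0.55, with 22 of 24 higher. G1 and S cyclins with their factors stood at 0.18 and -0.48, with 17 of 20 higher. Over the settings tried the sgs1 null median ran from -0.10 to 0.23 for that list, from -0.15 to 0.14 for the purine list, from -0.40 to -0.08 for the ergosterol list and from -0.74 to -0.12 for G2 and M, so the first 2 have no settled sign. No member of any list passed the test of the difference, and the difference of the lists as a whole was not tested.

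**Figure D5:**
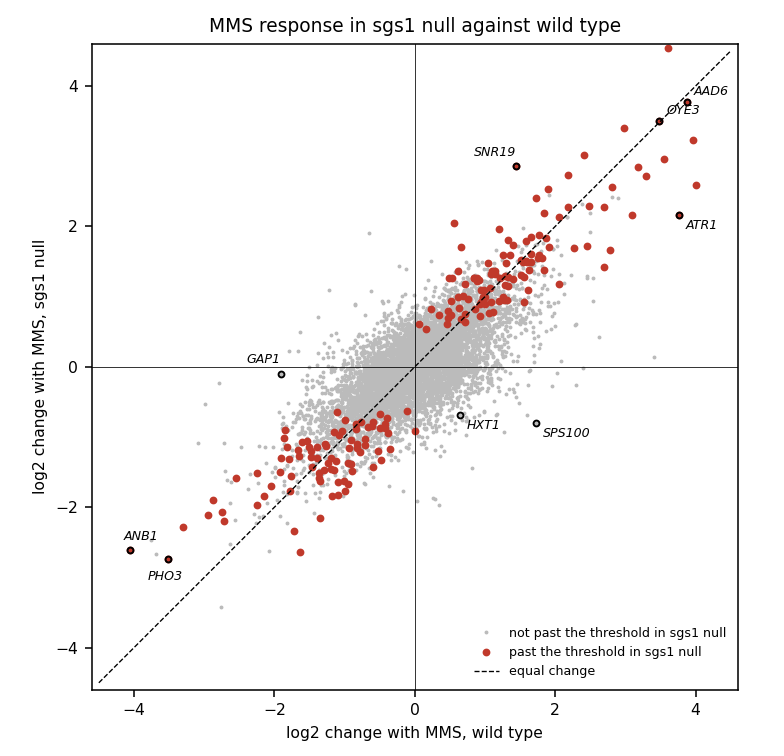
Log2 change with MMS in sgs1 null (vertical) against that in wild type (horizontal) for all 7641 features; red points passed the threshold in sgs1 null, grey points did not, and the dashed line marks equal change. Points follow the line (r = 0.73), with GAP1, SPS100 and HXT1 among the named genes far from it.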

How the data were processed

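The authors deposited 1 intensity per probe set and array, not on a log scale, and the sources used here do not state the software, scaling or background correction. From 8363 probe sets, 32 controls and 1 with a missing value were left out. Names came from the platform annotation, checked against RefSeq symbols: 6269 probe sets had 1 symbol, 309 several and 1752 none, and the last kinds were tested but not named. Probe sets of a gene were averaged as log2 values (291 genes), for 7641 features with 5580 named genes. Arrays were quantile normalized, with the 10th percentile, 97.1, as a floor under all values. That floor follows the earlier processing of these data. A gene at the floor has only a bound, and its fitted change is no measured size. The model had 4 group means over 8 arrays in limma 3.58.1 (R 4.3.3; lmFit, contrasts.fit, eBayes without trend), with 4 residual and 0.986 prior degrees of freedom, with two-sided tests and Benjamini-Hochberg adjusted p-values over all features, threshold 0.05. All adjusted p-values are limma's, changes are log2 values ± SE, and 3.36% of features were at the floor on all arrays. Only the model fit was tested on simulated data, with independent noise on each array. Normalization, the floor, the averaging of probe sets and deviations shared by arrays of a mark were not part of that test.

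The 56 lists and the members were chosen with earlier results of these data known. Genes were named by a rule: up to 15 rises and 15 falls past the threshold without overlap, the 5 smallest p in each direction of the strain difference, up to 8 called members per list or else the 2 with the smallest p, a set of damage-response genes and the 3 smallest calls per direction. Others are said to be named after their values were seen. Alternatives were another scaling, floor, filter or trend, the sgs1 null arrays alone, the mark as a block and leaving out arrays. The labels do not say what the mark stands for. Same-mark deviations of MMS and untreated arrays correlated at -0.062 in sgs1 null and at 0.54 in wild type, and those of sgs1 null MMS with untreated wild type at 0.36. With 2 arrays a group the mark was not taken as pairing, so the fit has no block and ignores what these arrays share.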

Additional observations from a re-analysis of the deposited data

How the results depend on the processing

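The sgs1 null count of 192 was 178 with median centring, 143 on the deposited scale, 209 with the floor at the 20th percentile, 162 without features at the floor throughout, 185 without the dimmest 25% and 168 with an intensity trend. It moved to 56 when only values at or below 0 were floored, to 0 with the sgs1 null arrays alone (1318 at an unadjusted p under 0.05) and to 0 without both MMS arrays marked rep (1319 unadjusted; chosen after seeing the data). With the mark as a replicate block it was 496, holding 188 of the 192; the labels do not say that the mark pairs arrays. The higher calls were 56.8% of the total, 48.9% with median centring. Leaving out 1 array gave 1 to 13 calls in sgs1 null, 0 to 275 in wild type and 0 for the difference. In wild type the block gave 935 calls and leaving out both MMS arrays marked rep 0 (1599 unadjusted), against 485. The difference gave 1 call with the floor at the 20th percentile and 3 with the trend. In each setting the features called in sgs1 null that were present kept their fitted sign, except 1 with the floor at the 20th percentile. With that floor 474 of the 485 wild-type calls kept theirs. Where a change is 0, as at an end of the ranges of DAN1 and PRM6, there is no sign to keep. Without the dimmest 25%, 164 of the 192 were present. Called falls near the floor did not keep their size: DAN1 ran from -1.01 to 0 over the settings and PRM6 from -1.1 to 0. Called rises of dim genes changed in size too: GTO3 ran from 0.49 to 1.88, PLM2 from 0.35 to 1.06 and CDC21 from 0.61 to 1.33. Signs turned for uncalled genes: GAP1 ran from -0.21 to 0.02 with 1 array left out and was 0.02 without both MMS arrays marked rep; JJJ1 was -0.11 with median centring and -0.06 on the deposited scale; MF(ALPHA)1 was -0.14 and -0.08 there and -0.18 to 0.36 without 1 array (-0.08 in another such fit); MF(ALPHA)2 was -0.25 and -0.22 there, 0 with the floor at the 20th percentile -0.15 to 0.38 without 1 array and -0.15 without both MMS arrays marked rep; RMI1 was 0.06 without that array, without the first untreated one, or without both marked rep. Of 448 list medians under alternatives, 379 moved by less than the spread between arrays. The causes were not tested.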

Other observations

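Of 5563 pairs of named genes that neighbour each other in the RefSeq order, 7 had both members called with MMS in sgs1 null, and 4 of these moved the same way. Of all named genes 2.96% were called. How many such pairs that share alone would give was not computed, so no link between neighbours is drawn from the count. The same-way pairs were PHO3 with PHO5 (-2.74 and -1.26), CRR1 with FRE1 (1.29 and 2.27), MRX16 with YCF1 (2.17 and 1.71) and YOL163W with YOL162W (1.16 and 1.59). The other pairs were ADH6 with FET4 (1.26 and -1.32), DAT1 with CTK3 (-0.64 and 1.48) and YOL162W with CSS3 (1.59 and -1.33). Genes outside the naming rule among these were chosen after their values were seen.

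RIP1 stands on the array as a named feature and also as a control probe set left out of the tests. The control probe set had deposited intensities of 939.7 and 1337.4 in sgs1 null with MMS and 2924.1 and 2273.4 untreated. It had 911.9 and 1317.9 in wild type with MMS and 2893.5 and 2192.6 untreated, nearly the same values as the sgs1 null arrays of the same mark.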
